A study of Rattus norvegicus with 10 samples.

Results

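The core circadian clock was described in the hypothalamus of fasted rats after 1 week of mild or moderate calorie restriction (CR). The genes were chosen by name: Per1, Per2, Per3, Cry1, Cry2, Nr1d1, Nr1d2, Dbp, Tef and Clock. They account for 10 of the 14218 genes and 20 of the 31099 probe sets on the array, a probe set being the group of short probes that measures a transcript. Male Wistar rats, an outbred laboratory strain, were bought at 5 weeks of age and entered the experiment at 6 weeks. They received the AIN-93G purified diet, either as controls or with the supply cut by 5, 10, 20 or 30%, for 1 week or 1 month. Every group, controls included, went without food for 16 h before tissue was taken. Each group's RNA, from 5 rats, was pooled and hybridised to a single Affymetrix rat genome array. The labels call the tissue brain, and the study's methods place it in the hypothalamus area. The 5 arrays of 1 week are described here. The hour of day at which the rats were sampled is not given in the sources used here.

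The clock is a feedback loop of transcription. Clock and its partner Bmal1 bind E-boxes in promoters and switch on the Per and Cry genes, whose proteins return to the nucleus and repress that same pair. Nr1d1 and Nr1d2, the REV-ERB nuclear receptors, form a further loop by repressing Bmal1, and Dbp and Tef, transcription factors of the PAR bZIP family, act on D-boxes of clock and output genes. Transcripts of most of these genes rise and fall over the day, the master clock lies in the suprachiasmatic nucleus of the hypothalamus, and food intake can shift the clocks of other tissues.

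Motifs of this scheme were searched for in the rat promoters, since they are the letters through which the loop is known to act. RefSeq windows of the GRCr8 assembly, from 250 bases before to 50 bases after each annotated start, were found for 9 of the 10 genes, in 11 windows. The stretches shown are the parts of the windows that held a motif of the loop, read 5′ to 3′ along the gene, with the motif in capitals. The motifs searched on both strands were the E-box CACGTG, the E-prime box CACGTT (a variant E-box), the D-box TTATGTAA or TTACGTAA, the cAMP response element TGACGTCA and the ROR response element.
Per2, chr9:99497010-99497225, minus strand: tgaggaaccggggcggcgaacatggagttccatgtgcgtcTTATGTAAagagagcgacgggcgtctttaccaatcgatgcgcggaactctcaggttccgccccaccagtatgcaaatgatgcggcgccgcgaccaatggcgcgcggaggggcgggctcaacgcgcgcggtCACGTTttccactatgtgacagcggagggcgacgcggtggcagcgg
Cry2, chr3:98860604-98860687, minus strand: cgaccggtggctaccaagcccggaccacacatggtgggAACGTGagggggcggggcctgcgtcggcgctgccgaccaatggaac
Nr1d1, first start, chr10:84231941-84232026, minus strand: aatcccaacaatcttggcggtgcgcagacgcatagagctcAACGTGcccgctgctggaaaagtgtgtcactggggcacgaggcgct
Nr1d1, second start, chr10:84229600-84229685, minus strand: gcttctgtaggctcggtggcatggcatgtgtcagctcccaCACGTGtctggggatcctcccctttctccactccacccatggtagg
Tef, chr7:115206589-115206674, plus strand: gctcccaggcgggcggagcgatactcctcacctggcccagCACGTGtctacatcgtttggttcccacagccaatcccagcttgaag
Per2 held both a D-box, 192 bases before the start, and an E-prime box 62 bases before it. Cry2 had an E-prime box in the opposite orientation (AACGTG) 212 bases upstream. At Nr1d1 the first start had an E-prime box in the opposite orientation 174 bases upstream, and the second start an E-box 191 bases upstream. Tef held an E-box 198 bases before its start. No pair of these matches shared a base. An E-box lay in 2 of the 11 windows of clock genes and in 6.42% of the 33469 windows of all genes, an E-prime box in 3 and in 4.83%, and a D-box in 1 and in 1.01%. The cAMP response element was in 0 of the 11 windows against 1.83% of all, and the ROR response element in 0 against 0.356%. These matches describe the letters in the windows and were not compared with the signals.

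The values were MAS5 signals, an Affymetrix estimate on a linear scale, and differences are log2 of CR minus log2 of control. Of the 20 clock probe sets, 12 had a mean log2 signal above the median of the array and entered the limma fit over 15521 probe sets, including the brightest, here called leading, probe set of each of the 10 genes. The other 8 are given as signals. The fit set the 4 CR arrays against the lone control array, which was assumed to vary like them. The CR levels are not replicates of a dose, the p-values reflect only how the pools differ among themselves, and no level had a second array, so neighbouring levels cannot be ranked against their own spread. The adjusted p was under 0.05 with a higher signal in CR for 2 of the 12 clock probe sets (16.7%), Per3 and Cry2, where 14.5% of all probe sets tested were called higher. It was under 0.05 with a lower signal for 0 of the 12 clock probe sets, where 11% of all were called lower (limma; also 0 at an unadjusted p under 0.05). With median scaling it was under 0.05 with a lower signal for 2 of the 12, Dbp and the second Nr1d2 probe set. Over all probe sets, lower calls then rose from 1712 to 5057. The median difference of the 12 was 0.06 on the log2 scale, and that of all probe sets tested was 0.03. In pooled tissue, fewer cells of a type and less RNA per cell cannot be told apart.

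**Figure D1:**
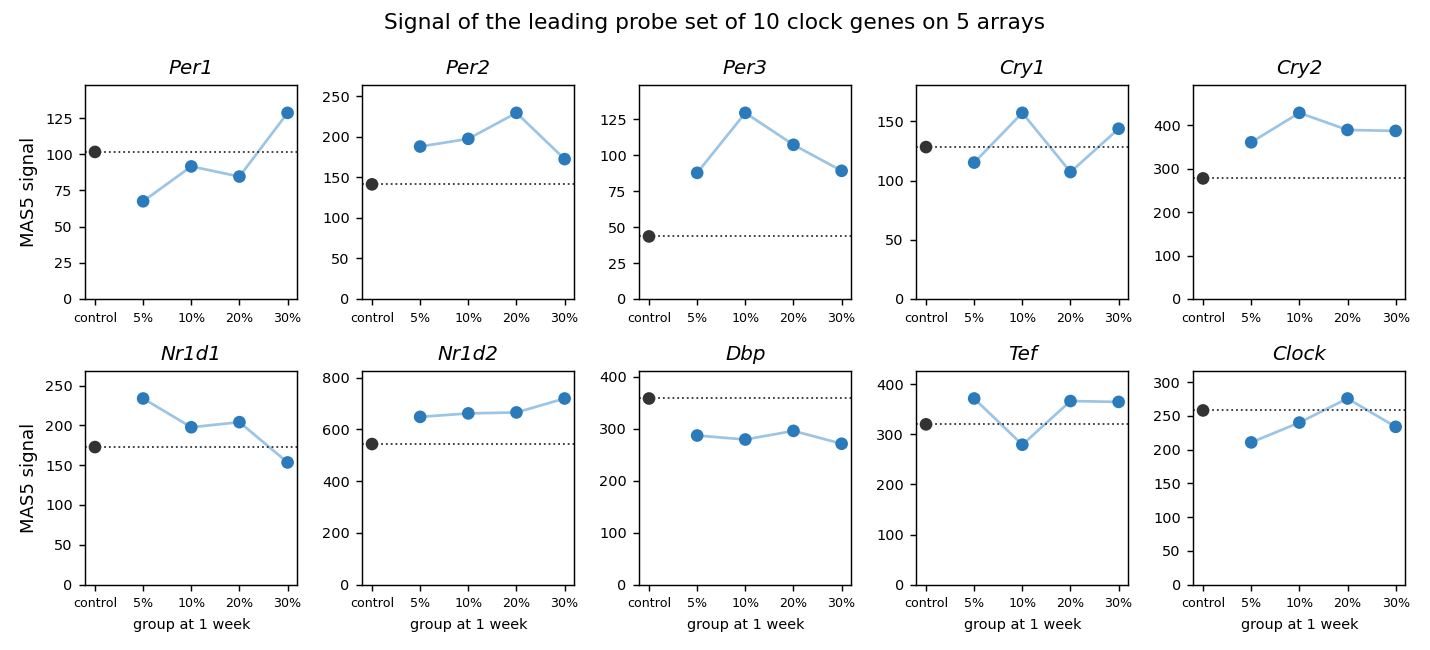
MAS5 signal (linear axis from 0) of the leading probe set of each clock gene on the control array (dark point and dotted line) and on the arrays of 5, 10, 20 and 30% CR (blue points). Per3 rises from 43.5 in the control to between 87.7 and 129.4 in CR, whereas Per1 and Nr1d1 each cross the control line between 20 and 30% CR.

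The control array stood apart from the other 4 arrays. Over probe sets, which are not replicates, the log2 signals of the control had an r of 0.852 to 0.874 with those of CR arrays, and CR arrays one of 0.912 to 0.922 among themselves. A signal below 10 was found for 24.02% of probe sets in the control and for 11.71 to 14.35% in CR. The GAPDH 3′ to 5′ log2 ratio, a measure of RNA integrity, was 0.19 in the control and 0.40 to 0.79 in CR. Summed pituitary markers were 990.3 in the control and 2049.2 to 2860.7 in CR (7 of 7 on the array, 3 tested, 3 higher; Prl and Pou1f1 were under 10 in the control), and choroid plexus markers 117.3 and 252.7 to 330.3 (4 of 5 on the array, 2 tested, 1 higher). Cortex and hippocampus markers went from 262.2 to between 457.5 and 578.8 (4 of 5 on the array, 1 tested and higher, Prox1), and thalamus markers from 2481.3 to between 1952.2 and 1988.8 (5 of 5 on the array, 4 tested, 1 lower, Calb2). Oligodendrocyte markers summed to 16466.2 and 15376.3 to 16195.7 (4 of 5 on the array, 4 tested, 1 lower, Mog) and astrocyte markers to 15791.9 and 16414.2 to 17595.6 (5 of 5 on the array, 5 tested, 1 higher and 1 lower). Hypothalamic peptides summed to 22249 and 24948.4 to 27127.1 (14 of 15 on the array, 11 tested, 3 higher and 1 lower), with Pmch and Hcrt bright on every array and Pomc low, at 2.6 in the control and 4.9 to 14.8 in CR. Suprachiasmatic markers summed to 4786.5 in the control, inside the CR range of 4021.9 to 5016.9 (14 of 15 on the array, 8 tested, 0 called by limma), and Prok2 was under 10 throughout. Most of that sum was Avp, 3721.5 in the control, which is also a hypothalamic peptide. Vip, Six6 and Vipr2 lay below the control on all 4 CR arrays, with log2 differences of -0.62 (limma adjusted p = 0.106), -0.60 and -0.82, the latter pair not tested. Grp, Avpr1a, Rgs16 and Rorb (its leading probe set) lay above the control on all 4, with differences of 0.41, 0.60, 0.34 and 0.46 and no call. So did Prok2 and Prokr2, which were faint and not tested. Avp, Zfhx3, Gpr176, Lhx1 and Syt10 had CR arrays on both sides. The part of the control array, of RNA integrity and of tissue composition in the differences from control was not tested. Scaling each array to its median moved the median difference of all probe sets from 0.03 to -0.41, whereas it was 0.02 with quantile and -0.03 with cyclic loess scaling.

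The Period genes encode the repressors whose build-up closes the loop, and Per1 and Per2 are also induced by acute signals. Per3 had the largest difference among the leading probe sets. Its signal (1378745_at) was 43.5 in the control, 87.7 at 5%, 129.4 at 10%, 107.2 at 20% and 89.1 at 30% CR. All 4 CR arrays lay above the control, with the highest value at 10%. The log2 difference was 1.23 ± 0.26 (SD, n = 4 CR arrays, 95% interval 0.48 to 1.98), or 2.35-fold, with a limma adjusted p of 0.0239. Of all probe sets tested, 93.2% had a lower difference. The call did not hold with median scaling (0.79, adjusted p 0.0819), quantile scaling (0.84, 0.118) or cyclic loess scaling (0.99, 0.0556), and it held when each CR array was left out in turn. The fainter Per3 probe set (1388239_at, not tested) read 5.5 in the control and 35.6, 8.0, 33.9 and 19.4 at 5, 10, 20 and 30% CR, so it too was higher on all 4 CR arrays, but lowest among them at 10%, where the leading probe set was highest.

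Per2 (1368303_at) had a signal of 141.3 in the control and of 187.9, 197.4, 229.4 and 172.4 at 5, 10, 20 and 30% CR. Each CR array was above the control, and 30% was the nearest to it. The difference of 0.47 ± 0.17 (SD, n = 4, 95% interval -0.02 to 0.96) did not pass the test (limma adjusted p = 0.148), and it shrank to 0.03 with median scaling. A second Per2 probe set (1378560_at, not tested) stayed between 15.4 and 19.4 on the 5 arrays.

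The signal of Per1 (1374855_at) was 101.6 in the control, 67.5 at 5%, 91.6 at 10%, 84.6 at 20% and 128.6 at 30% CR. The lower 3 CR levels lay under the control and 30% above it, so the groups overlapped. The mean difference was -0.17 ± 0.39 (SD, n = 4, 95% interval -0.99 to 0.65, limma adjusted p = 0.776). From its lowest to its highest CR array Per1 spanned 0.93 on the log2 scale, or 1.91-fold, the widest range of any leading clock probe set, and 88.5% of all probe sets tested had a smaller one.

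The cryptochromes are the partners of the Period proteins and the stronger repressors of Clock and Bmal1. Cry2 (1372548_at) read 278.0 in the control and 361.2, 429.1, 389.7 and 387.5 at 5, 10, 20 and 30% CR. The 4 CR arrays were all higher than the control and close to each other, within 1.19-fold. The difference was 0.49 ± 0.10 (SD, n = 4, 95% interval 0.13 to 0.85), or 1.41-fold, and the limma adjusted p of 0.0476 was just under the threshold. Leaving out the 5, 10, 20 or 30% array took it to 0.0586, 0.089, 0.0699 and 0.0607, and median scaling took the difference to 0.05 (adjusted p 0.831). A fainter Cry2 probe set (1369446_at, not tested) was at 29.6 in the control and at 56.3, 35.1, 81.7 and 32.8 in CR, again above the control on every CR array but far more scattered.

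Cry1 (1392640_at) gave 128.3 in the control and 115.2, 157.2, 107.2 and 143.8 at 5, 10, 20 and 30% CR. Its CR arrays fell on both sides of the control, below it at 5 and 20% and above it at 10 and 30%. The mean difference was 0.01 ± 0.26 (SD, n = 4, 95% interval -0.62 to 0.64, limma adjusted p = 0.983), and its sign turned with each other scaling. Cry2 and Per3 were the only pair, among the 45 pairs of leading clock probe sets, that ordered the 5 arrays alike, with 10% highest, then 20, 30 and 5%, and the control lowest. This pair, made of the probe sets called higher, was picked out after its values were seen. The share of such pairs over all genes was not counted.

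**Figure D2:**
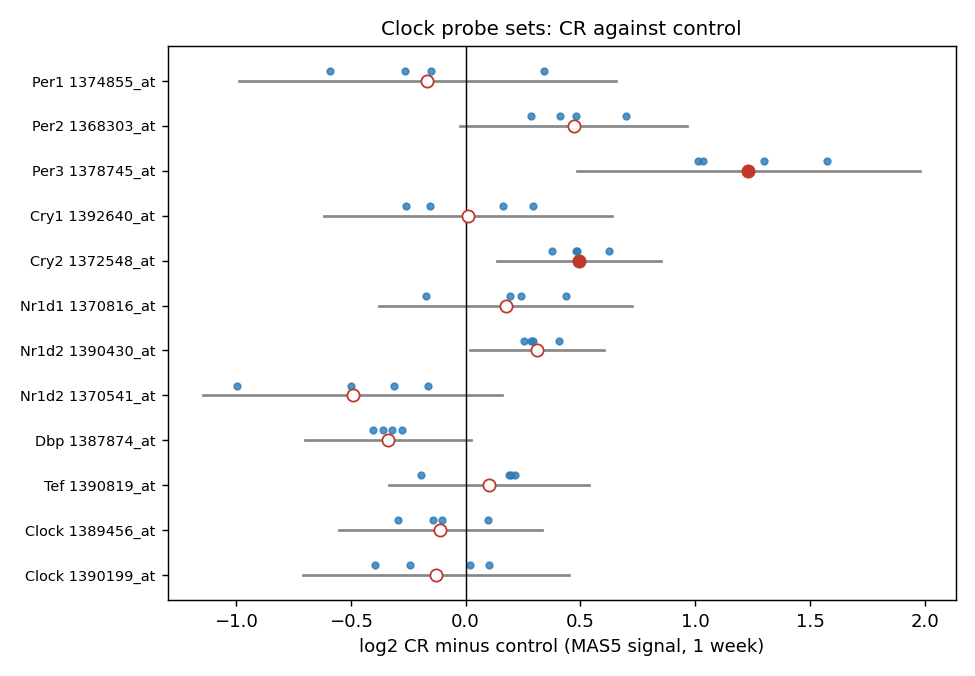
Log2 difference of CR from control for the 12 clock probe sets tested, with the mean (red circle, filled where the limma adjusted p was under 0.05), its 95% interval (grey line) and each CR array minus the control (blue points). Per3 and Cry2 are filled, at 1.23 and 0.49 as deposited and at 0.79 and 0.05 after median scaling, where neither passed. Cry1, Nr1d1, Tef and Nr1d2 1390430_at change sign with median scaling, and Cry1 also with quantile and loess scaling.

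The REV-ERB receptors repress Bmal1 and are themselves switched on by Clock and Bmal1. Nr1d1 (1370816_at) had a signal of 172.7 in the control, 233.7 at 5%, 197.6 at 10%, 204.0 at 20% and 153.4 at 30% CR. It was highest at 5%, and at 30% it lay below the control, opposite to Per1. The mean difference was 0.18 ± 0.25 (SD, n = 4, 95% interval -0.38 to 0.73, limma adjusted p = 0.644) and turned to -0.26 with median scaling.

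Nr1d2 was measured by 3 probe sets that did not move alike. The leading one (1390430_at) read 543.3 in the control and 648.4, 661.8, 665.5 and 719.4 at 5, 10, 20 and 30% CR. It was above the control on every CR array and was the one clock probe set of the 12 whose signal rose in order of CR level, which 3.68% of all probe sets tested did. Its difference of 0.31 ± 0.07 (SD, n = 4, 95% interval 0.02 to 0.60) did not pass after adjustment (limma adjusted p = 0.111), and its sign turned with median scaling (-0.13). The second one (1370541_at) read 265.5 in the control and 188.0, 133.3, 237.2 and 214.1 in CR, all below the control and lowest at 10%. Its difference was -0.49 ± 0.36 (SD, n = 4, 95% interval -1.14 to 0.16, limma adjusted p = 0.245), and with median scaling it passed (-0.93, 0.0246). The third (1370540_at, not tested) was faint, at 16.9 in the control and 9.3, 6.4, 7.2 and 14.0 in CR, and also lay below the control throughout. The mean of the 3 probe sets was 0.37 lower in CR than in control (log2 difference -0.37, adjusted p = 0.383), so the direction for Nr1d2 depends on the probe set.

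The PAR bZIP factors carry the rhythm from the loop to output genes. Dbp, a direct target of Clock and Bmal1, had a signal (1387874_at) of 358.0 in the control and of 286.8, 279.1, 295.7 and 271.0 at 5, 10, 20 and 30% CR. Its CR arrays all lay below the control and within 1.09-fold of each other. Only 4.9% of all probe sets tested had a smaller range among the CR arrays. The difference of -0.34 ± 0.05 (SD, n = 4, 95% interval -0.70 to 0.02) did not pass the test (limma adjusted p = 0.153), although it did with median scaling (-0.78, adjusted p 0.00561), which lowered the median of all probe sets to -0.41. The difference rests on the lone control array, whose own spread is not known.

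Tef (1390819_at) read 320.1 in the control and 371.7, 279.4, 366.6 and 364.9 in CR. The values at 5, 20 and 30% lay close together above the control and the 10% array lay below it. The difference was 0.10 ± 0.20 (SD, n = 4, 95% interval -0.33 to 0.54, limma adjusted p = 0.742), and it was -0.34 with median scaling. Of the fainter Tef probe sets, which were not tested, 1385374_at stayed between 27.4 and 38.9, and 1369919_at was 14.1 in the control and 15.8, 14.0, 24.0 and 39.4 in CR.

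Clock, the positive arm of the loop, is known for a transcript that varies little over the day. Its leading probe set (1389456_at) read 258.2 in the control and 210.8, 240.2, 275.9 and 233.9 at 5, 10, 20 and 30% CR. Only the 20% array exceeded the control, and the groups overlapped. The difference was -0.11 ± 0.16 (SD, n = 4, 95% interval -0.55 to 0.33, limma adjusted p = 0.72). The second Clock probe set (1390199_at) was 157.1 in the control and 168.9, 132.8, 159.3 and 119.4 in CR, with a difference of -0.13 ± 0.23 (SD, n = 4, 95% interval -0.71 to 0.45, limma adjusted p = 0.753). The faintest ones, not tested, went opposite ways: 1369168_a_at was 3.4 in the control and 8.0 to 44.5 in CR, and 1380098_at was 21.9 in the control and 5.2 to 13.5 in CR.

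**Figure D3:**
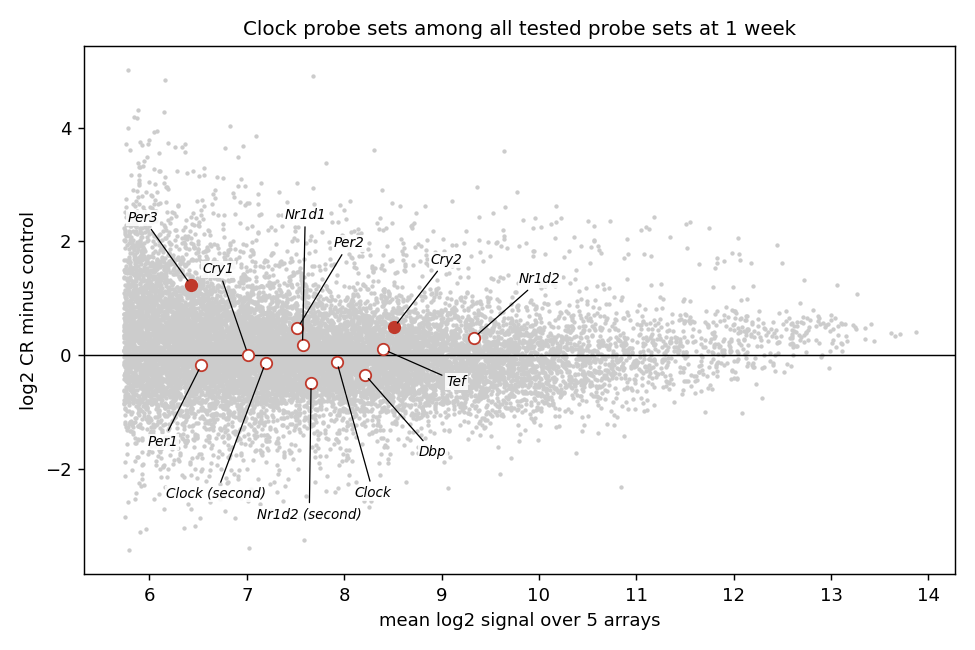
Log2 difference of CR from control against mean log2 signal over the 5 arrays, for all 15521 probe sets tested (grey) and the 12 clock probe sets (red, filled where the limma adjusted p was under 0.05). The clock probe sets lie within the grey cloud, from -0.49 for the second Nr1d2 probe set to 1.23 for Per3. These values are as deposited, and Cry1 near 0 changes sign with each other scaling.

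Side by side, 4 of the 12 clock probe sets lay above the control on every CR array (Per2, Per3, Cry2 and the leading Nr1d2) and 2 below it (Dbp and the second Nr1d2), whereas 6 had CR arrays on both sides. Of all probe sets tested, 37.1% lay above the control on every CR array and 33.1% below. With median scaling the clock counts were 1 above and 8 below, beside 16.6% and 61.3% of all, and with quantile and cyclic loess scaling they were again 4 and 2.

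The level of restriction was asked about without the control array. No clock probe set had a trend over CR level past the threshold (limma adjusted p 0.999 or above; 0 of the 12 with an unadjusted p under 0.05), and among all 15521 probe sets 0% were called, with 4.79% under an unadjusted p of 0.05. The steepest clock slopes belonged to Per1 and Nr1d1 and had opposite signs. Per1 gained 0.305 in log2 signal for every 10 percentage points of CR (95% interval -0.04 to 0.65, limma unadjusted p 0.0766, adjusted p 0.999). For Nr1d1 the slope was -0.205 (95% interval -0.43 to 0.02, limma unadjusted p 0.0645, adjusted p 0.999). Without the 30% array these slopes were 0.17 and -0.105. None of the 12 fell in order over 5, 10, 20 and 30% CR, which 3.73% of all probe sets did.

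Comparing 20 and 30% with 5 and 10% CR also gave no call (limma; 0% of all probe sets and 0 of the 12 clock probe sets, with an unadjusted p under 0.05 in 5.04% of all and in 1 of the 12). That one was the second Nr1d2 probe set, which was 0.51 higher on the log2 scale at 20 and 30% CR (95% interval 0.01 to 1.00, unadjusted p 0.0453, adjusted p 0.937). Its 4 values were 188.0, 133.3, 237.2 and 214.1 at 5, 10, 20 and 30% CR. Without the 10% array the difference was 0.26.

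**Figure D4:**
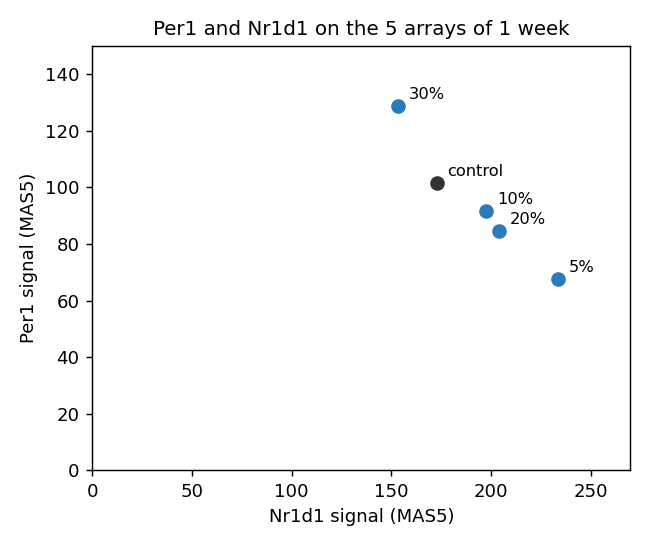
Per1 signal (vertical axis) against Nr1d1 signal (horizontal axis) on the 5 arrays of 1 week, both as MAS5 signals on linear axes from 0. Nr1d1 is highest and Per1 lowest at 5% CR (233.7 and 67.5), and Nr1d1 is lowest and Per1 highest at 30% CR (153.4 and 128.6).

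Per1 and Nr1d1 ordered the 5 arrays in exactly opposite ways. From 5% through 20% and 10% CR to the control and 30% CR, Nr1d1 went from its highest to its lowest signal and Per1 from its lowest to its highest. Of the 45 pairs of clock genes, 1 was reversed in this way. The pair was picked out after its values were seen, so it is a description of 5 arrays. The share of reversed pairs over all genes was not counted.

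The genes most like Per3 over the 5 arrays, by Pearson r of log2 signal, were Phyh, a peroxisomal enzyme of phytanic acid breakdown (r = 0.9989), Kif26b (0.9983) and Lcnl (0.9973). Phyh read 987.5 in the control and 1441.0, 1749.2, 1627.5 and 1460.8 at 5, 10, 20 and 30% CR. So many genes shared this shape, high at 10% with a low control, that 457 of 9469 had an r over 0.95. For Per1, 24 of 9469 genes passed that limit, and the closest were Map3k20, a stress-activated kinase (r = 0.9869), Mlycd, the enzyme that degrades malonyl-CoA (0.9804), and Fbxl17l1 (0.9792). Mlycd was 205.9 in the control and 140.1, 175.0, 181.0 and 240.3 in CR. Genes are not independent replicates, and the 5 arrays share 1 control.

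Other genes of the clock were read from a list of 26, of which 22 were on the array with 46 probe sets and 17 had 33 probe sets in the test. By probe set, 6 of the 33 were higher in CR (18.2%, beside 14.5% of all) and 3 lower (9.09%, beside 11% of all). With median scaling 10 were lower, while lower calls over all probe sets rose from 1712 to 5057. The median difference of the 33 was 0.05. In the positive arm neither Bmal1 nor Npas2 passed the test, and Bmal2, at 6.3 in the control and 7.2 to 71.3 in CR, was not tested. Bmal1 (1370510_a_at) read 103.3 in the control and 81.5, 87.7, 66.1 and 61.2 at 5, 10, 20 and 30% CR, all below the control, with a difference of -0.49 ± 0.25 (SD, n = 4, limma adjusted p = 0.324). Npas2, which can stand in for Clock, had a difference of 0.39 (adjusted p 0.462), with 99.2 and 130.2 at 5 and 10% CR and 194.8 and 178.7 at 20 and 30%. The higher CR levels exceeded the lower by 0.715 on the log2 scale, without a call (limma unadjusted p 0.0122, adjusted p 0.937). In that comparison 3 of the 33 probe sets, and 5.04% of all, had an unadjusted p under 0.05. The ROR activators, which oppose the REV-ERB receptors, gave -1.48 for Rora and 0.46 for Rorb on their leading probe sets, both short of the threshold. Their fainter probe sets, not tested, went the opposite way. Rora 1380478_at read 9.3 in the control and 28.8 to 74.7 in CR, and Rorb 1371257_at read 57.2 and 14.9 to 38.7. Hlf, the third PAR bZIP factor, had 3 tested probe sets between -0.27 and 0.47, and the repressor Bhlhe41 gave 0.26, none of them called. A faint Hlf probe set, 1384811_at, was not tested and read 0.4 in the control and 8.9 to 65.7 in CR. Hlf's leading probe set passed without the 30% array (0.59, adjusted p 0.0223), and Bhlhe41 with quantile scaling (0.35, 0.0476).

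The calls among the other clock genes fell on kinases, on factors of protein turnover and on Nono. Usp2, a deubiquitinase that acts on clock proteins, read 84.4 in the control and 237.9, 169.7, 272.4 and 257.1 in CR on its leading probe set (1.45 ± 0.31, SD, n = 4, limma adjusted p = 0.00421), while its other probe set gave -0.65 (adjusted p 0.155, and 0.0198 with median scaling). Btrc, a subunit of the ubiquitin ligase that marks Period proteins for degradation, was higher by 0.50 on its leading probe set (adjusted p 0.0245), a call lost with median scaling (0.06, adjusted p 0.767) and with no intensity trend (0.0923). Casein kinase genes, whose products phosphorylate Period proteins, gave calls that differed by probe set. For Csnk1a1, 1374646_at and 1369312_a_at were lower (-0.53 and -1.40) and 1381918_at and 1389859_at were higher (2.20 and 2.25). Of these, 1381918_at read 21.3 in the control and 122.4, 37.1, 140.6 and 144.3 in CR, and lost its call with quantile and loess scaling (adjusted p 0.189 and 0.0702), with no intensity trend (0.0979) and without the 5, the 20 or the 30% array (0.0603, 0.0676 and 0.0551). Without an intensity trend 1374646_at lost its call too (0.0783). The higher Csnk1a1 probe sets were faint in the control, at 21.3 and, for 1389859_at, 20.5 (79.7 to 118.4 in CR). The filter lay at a signal of 53.33 for the mean over 5 arrays, of which 4 are CR. These probe sets passed it through their CR signals, and were not tested when both groups had equal weight in the filter. For Csnk1d, 1370528_at was higher by 2.03 and the other 3 tested probe sets gave between -1.13 and -0.11 without a call, although all 3 passed as lower with median scaling (adjusted p 0.00761 to 0.0234). The lowest of them, 1370527_a_at, had an adjusted p of 0.055 and also passed with loess scaling (0.0336), a pseudocount of 16 (0.0467) and without the 10 or the 30% array (0.047 and 0.035). A further Csnk1d probe set, 1395914_at, failed the filter and was not tested. It read 140.0 in the control and 21.9, 17.1, 42.5 and 13.3 at 5, 10, 20 and 30% CR, a log2 difference of -2.71. The higher Csnk1d probe set, 1370528_at, was itself faint in the control, at 24.9 (87.3 to 108.8 in CR), below the filter level of 53.33. Unlike the higher Csnk1a1 probe sets, it was still tested when both groups had equal weight in the filter. Csnk2a1 was higher on 1 of its 4 tested probe sets (1392650_at, 1.04, but 0.60 and adjusted p 0.0691 with median scaling) and on a further one, 1384339_s_at, without the 30% array (0.78, adjusted p 0.00401). The leading Csnk2a1 probe set, 1375636_at, instead lay below the control on all 4 CR arrays (-0.197) and passed as lower with median scaling (-0.635). Nono, a partner of the Period proteins, was lower on 1 of 2 (1384257_at, -1.75), with 0.05 on the leading one, which turned to -0.39 with median scaling. In all, 5 genes had a higher call, 2 a lower one, and Csnk1a1 had both, its higher calls being on the probe sets that the equal-weight filter left out.

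**Figure D5:**
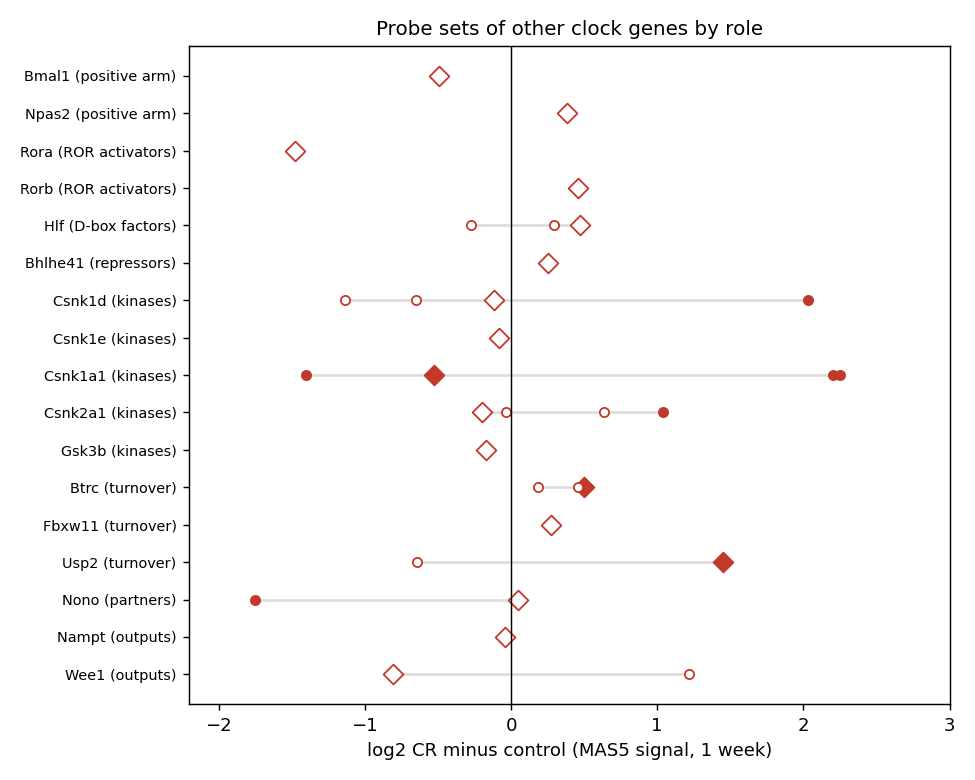
Log2 difference of CR from control for the 33 tested probe sets of 17 other clock genes, with each gene's leading probe set as a diamond and its other probe sets as circles (filled where the limma adjusted p was under 0.05), on signals as deposited. With median scaling Npas2, Bhlhe41, Fbxw11, the leading Nono probe set and a fainter one each of Hlf and Btrc change sign, and one of Csnk2a1 does with quantile and loess scaling. Probe sets of Csnk1a1 reach from -1.40 to 2.25, whereas Bmal1, Npas2, Rora and Rorb carry no filled marker. The higher Csnk1a1 probe sets passed the filter only through their CR signals. The higher Csnk1d probe set was also faint in the control, at 24.9.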

How the data were processed

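The authors deposited MAS5 signal intensities, linear, with a column for each array. The submitters' processing notes name MAS5, which combines perfect-match and mismatch probes, so that low signals are noisy on a log scale. Signals were taken as log2, with 4 values of 0 set to 0.1, and were not rescaled. The 57 control probe sets were left out, and the 15521 with a mean log2 signal over the 5 arrays above the 50th percentile were tested. R 4.3.3 with limma 3.58.1 was used, with lmFit, then eBayes with a trend on intensity, and p-values were two-sided and adjusted by Benjamini-Hochberg (threshold 0.05). CR against control had 3 residual degrees of freedom, and the trend and the comparison of 20 and 30% with 5 and 10%, on the 4 CR arrays, had 2. The step was tested on simulated data. There the control array was drawn with the mean and spread of the CR arrays. The assumption that the lone control varies like them was therefore not tested. Tables and plots were made in Python 3.11.15 (pandas 2.3.3, numpy 2.4.6, matplotlib 3.10.9). Genes were named from the platform annotation, in which 20832 probe sets had 1 symbol, 436 several and 9831 none, and none was named from several. Depth does not apply to arrays, whose number limits the precision.

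All probe sets of the 10 clock genes are described, the brightest of a gene leading. Other clock genes were counted as a list and named where they passed or bounded a group, and likeness was taken for the genes with the largest difference and the largest range in CR. The members and lists were chosen with earlier results of these data known. The 1 month columns were not used, since their rows correlated with those of 1 week at only 0.0357 to 0.0525 (r of log2 signals). Alternatives were median, quantile and cyclic loess scaling, no filter, a filter at the 75th percentile or with equal weight of both groups, a pseudocount of 16, eBayes without a trend or robust, the mean of a gene's probe sets, the control as 0% in the trend, and leaving out each CR array.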

Additional observations from a re-analysis of the deposited data

Results flagged for a closer look

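In 7 of the 66 probe sets of clock genes examined, 1 of the 4 CR arrays lay far below the other 3, by the gap to its nearest neighbour as a share of the range of the 4. The limit used is passed by chance in about 1 in 20 groups, for normally distributed values and an outlier on either side. The share over all probe sets was not counted. The 66 include several probe sets of the same gene, and faint ones that were not tested, whose low signals are noisy on a log scale. The 7 are therefore only listed. Among the 10 clock genes this was Tef (1390819_at), lowest at 10% CR with a share of 0.935 and a signal of 279.4. The others included Bhlhe40 at 20% CR (0.83, signal 8.3, not tested) and Bhlhe41 at 5% (0.847, signal 1147.5). Csnk1d was listed at 20% on 1373332_at (0.841, signal 518.8) and at 30% on 1370528_at (0.911, signal 87.3). The last were Csnk1a1 at 10% on 1381918_at (0.879, signal 37.1) and Csnk2a1 at 30% on 1384339_s_at (0.943, signal 381.7).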

How the results depend on the processing

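Per2, Per1, Clock, Dbp and the second Nr1d2 probe set kept their direction against control under every alternative that gave a value. Per3 was positive in all, from 0.79 to 1.30, and lost its call with median, quantile (0.84) and cyclic loess scaling (0.99). Cry2 was positive in all and lost its call with median scaling (0.05), no filter (adjusted p 0.0503), the filter with equal weight (0.052), no intensity trend (0.0954), the mean of the gene's probe sets (0.157) and when any one CR array was left out. Median scaling also reversed Cry1 (-0.43), Nr1d1 (-0.26), the leading Nr1d2 probe set (-0.13) and Tef (-0.34). Cry1 was further reversed with quantile (-0.026) and loess scaling (-0.073) and without the 10% or the 30% array (-0.083 to 0.101 over all arrays left out), and Nr1d2 with the mean of its probe sets (-0.37). Nr1d2's leading probe set passed with quantile scaling (0.41). Among the other clock genes, median scaling reversed Npas2 (-0.053), Hlf 1385585_at (-0.15), Bhlhe41 (-0.18), Btrc 1374654_at (-0.25), Fbxw11 (-0.167) and the leading Nono probe set (-0.39), and Csnk2a1 1376616_at was reversed with quantile (0.07) and loess scaling (0.029) and ran from -0.16 to 0.061 without single CR arrays.

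Of the clock probe sets, 2 were higher as deposited, 0 with median scaling, and 1 with loess scaling, no filter, the 75th percentile, equal weight, no intensity trend or without any one CR array. The clock probe sets called lower went from 0 to 2 with median scaling, and the genes called higher from 2 to 0 with the mean of all probe sets. Of the other clock genes' probe sets, 6 were higher and 3 lower as deposited, 10 lower with median scaling, and 3 higher and 1 lower at the 75th percentile. With equal weight of both groups in the filter 4 were higher and 4 lower, and with no filter 8 were higher and 4 lower. Over all probe sets, the higher calls went from 2246 to 1017 with median scaling, 4943 with no filter and 1295 at the 75th percentile, and the lower ones from 1712 to 5057 with median scaling and 1006 with no intensity trend. Leaving out a CR array gave 1 to 19 higher and 1 to 11 lower trends, and 0 to 11 higher and 0 to 1 lower in the comparison of 20 and 30% with 5 and 10%, where the full set gave 0 in limma (743 and 783 at an unadjusted p under 0.05), and no clock probe set was among them. The cause of these shifts was not tested. Filtering at the 75th percentile left no value for the dimmer clock probe sets, Per3 included, and the mean of Per3's probe sets did not pass the filter. The lone control array cannot be left out, and its spread limits every difference from control.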
